A study of Homo sapiens with 2 samples.

Results

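The genes described here are 37 protein-coding genes of DNA replication, from the factors that license origins to the enzymes that copy DNA at the fork and supply its nucleotides. They were taken by symbol from a fixed list of members, and all 37 were found among the 19951 protein-coding genes of a table of 58735 genes. The samples were 1 library of SH-SY5Y cells exposed for 24 h to TDCPP, the chlorinated flame retardant tris(1,3-dichloro-2-propyl) phosphate, mixed with titanium dioxide nanoparticles (TiO2 NPs), and 1 library of control cells labelled Ctrl. SH-SY5Y is a neuroblastoma line kept in DMEM with fetal bovine serum. The labels give no dose, no library of either agent alone and no replicate, so every difference below compares these 2 libraries and has no replicate check.

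In cycling cells, the origin recognition complex with CDC6 and CDT1 loads the MCM2-7 helicase onto origins in G1, and geminin (GMNN) later binds CDT1 and blocks a further round of loading. At the start of S phase CDC45 and the GINS complex join MCM2-7 to form the active helicase, with MCM10 assisting. DNA polymerases then copy the strands behind it, held by the ring-shaped clamp PCNA that the RFC complex loads. E2F transcription factors drive most of these genes at the G1/S boundary, and the retinoblastoma family holds E2F in check.

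The libraries held 15315572 reads (exposed) and 16471438 reads (control) on annotated genes, recovered as whole numbers from the deposited FPKM values (fragments per kilobase of the gene, corrected for library size). Genes were called measured where their FPKM averaged at least 1 over the pair of libraries, which 11409 protein-coding genes did. Of 13 fixed markers of noradrenergic neuroblastoma and neurons, 3 were measured (GATA3, ISL1 and HAND2), 10 had at most 10 reads in each library, and 5 of these, among them PHOX2A and TH, had 0 reads in both. The defining markers of the labelled cell type were therefore largely absent. Of these markers, TUBB3 shares 35.8% and HAND2 24.1% of its exonic bases with another annotated gene. HAND2 had 52 reads in exposed and 65 reads in control cells, ISL1 had 57 and 99, and GATA3 had 254 and 320.

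Promoters of the members are shown first, because the members are commonly grouped as E2F targets. RefSeq promoters of 300 bases (250 before and 50 after the RefSeq start, build GRCh38.p14) matched 34 of the 37 by symbol. GINS4, MCM4 and MCM5 had no entry. The RefSeq start can differ from the gene start in the deposited annotation. The RRM2 window begins at 10122489, whereas that annotation starts the gene at 10120698. Each line gives one promoter from 5′ to 3′ on the strand of its gene, with matches in capitals. E2F1 (chr20:33686336-33686635, minus strand) is the factor itself, MCM6 (chr2:135876394-135876693, minus strand) held the most matches, and CDT1 (chr16:88803539-88803838, plus strand) had the highest log2 ratio of all members. CLSPN (chr1:35769929-35770228, minus strand) and RRM2 (chr2:10122489-10122788, plus strand) had the lowest log2 ratios. Capitals mark E2F matches in E2F1, MCM6, CDT1 and CLSPN. In RRM2, which had no E2F match, they mark the letters CCAAT, the core of the box bound by NF-Y.
E2F1: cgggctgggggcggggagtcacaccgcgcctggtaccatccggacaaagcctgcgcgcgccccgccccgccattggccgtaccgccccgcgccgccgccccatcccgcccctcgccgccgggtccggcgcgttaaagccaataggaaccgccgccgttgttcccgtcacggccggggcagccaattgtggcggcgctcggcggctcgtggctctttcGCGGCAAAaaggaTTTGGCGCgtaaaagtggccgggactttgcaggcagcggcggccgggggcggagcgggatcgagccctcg
MCM6: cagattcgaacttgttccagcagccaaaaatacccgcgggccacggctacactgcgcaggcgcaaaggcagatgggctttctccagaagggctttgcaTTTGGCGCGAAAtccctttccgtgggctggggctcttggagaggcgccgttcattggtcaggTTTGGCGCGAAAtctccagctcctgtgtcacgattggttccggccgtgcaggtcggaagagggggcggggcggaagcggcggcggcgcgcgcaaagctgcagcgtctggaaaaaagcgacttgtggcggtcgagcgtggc
CDT1: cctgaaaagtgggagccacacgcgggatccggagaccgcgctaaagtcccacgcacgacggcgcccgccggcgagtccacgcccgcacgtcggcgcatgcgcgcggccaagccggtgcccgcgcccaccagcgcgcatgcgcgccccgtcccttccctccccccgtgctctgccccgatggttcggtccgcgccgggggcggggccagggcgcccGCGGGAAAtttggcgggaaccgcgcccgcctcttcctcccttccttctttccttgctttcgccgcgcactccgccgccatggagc
CLSPN: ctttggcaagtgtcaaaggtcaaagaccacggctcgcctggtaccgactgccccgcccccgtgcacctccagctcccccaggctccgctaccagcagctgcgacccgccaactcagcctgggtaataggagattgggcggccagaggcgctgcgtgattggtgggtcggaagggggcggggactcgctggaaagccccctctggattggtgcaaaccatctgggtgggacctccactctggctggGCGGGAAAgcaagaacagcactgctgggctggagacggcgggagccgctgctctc
RRM2: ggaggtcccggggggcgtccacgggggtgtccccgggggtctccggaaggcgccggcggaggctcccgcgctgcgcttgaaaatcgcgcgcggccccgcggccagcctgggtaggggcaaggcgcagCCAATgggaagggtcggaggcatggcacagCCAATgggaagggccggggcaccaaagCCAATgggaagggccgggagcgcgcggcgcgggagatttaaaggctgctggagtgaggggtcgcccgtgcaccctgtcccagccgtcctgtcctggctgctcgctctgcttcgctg

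The E2F letters searched were TTTCCCGC, TTTCGCGC, TTTGCCGC and TTTGGCGC on both strands. Of the members' promoters, 19 of 34 (55.9%) held at least 1 match, against 3.31% of all 35116 promoters of that table and 5.62% of the 9159 of measured protein-coding genes. Matches can overlap each other: MCM6 held 4 matches that form 2 overlapping pairs, and MCM2 held 1 such pair. In 17 of the 19, a match began between 60 bases before and 10 bases after the RefSeq start, a window chosen after the positions were seen. Of the 515 measured genes with a match, 26.8% had one there. The CHR element, searched as TTTGAA on both strands and known from genes of G2 and mitosis, was found in 1 member, RRM1 (2.94%), and in 70.8% of 24 promoters of a fixed list of mitotic genes, against 9.12% of measured genes. CCAAT, on both strands, was found in 58.8% of the members' promoters and in 37.2% of those of measured genes. It was found in 75% of the 24 mitotic promoters and in 49% of 51 promoters of other listed replication genes. RRM2 held 3 CCAAT matches and no E2F match. These matches describe the letters in these windows only.

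**Figure D1:**
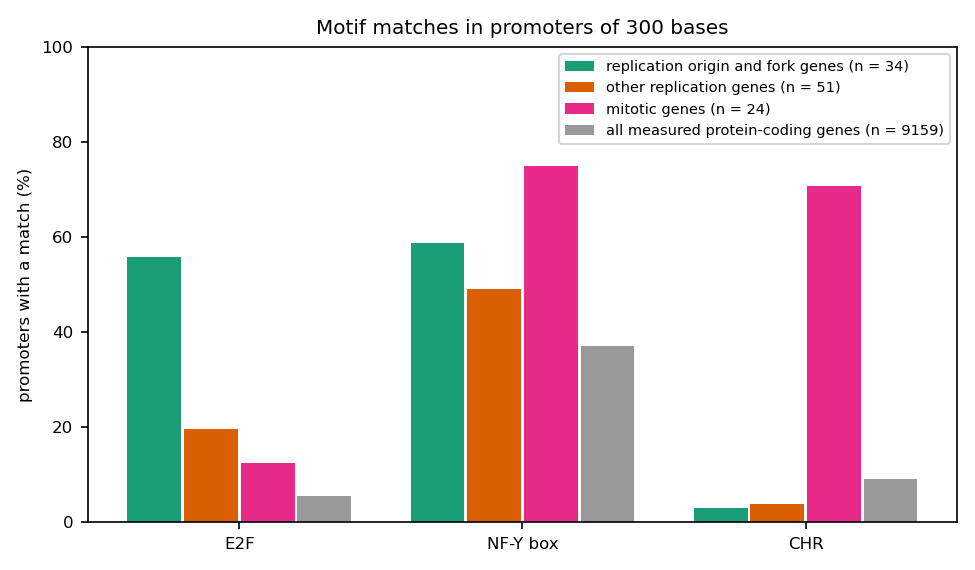
Share of promoters (percent, 300 bases each) with at least 1 match to E2F, to the NF-Y box or to CHR, for the 34 members with a promoter, 51 other replication genes, 24 mitotic genes and 9159 measured protein-coding genes. E2F matches were in 55.9% of the members' promoters and CHR in 2.94%, whereas 12.5% of mitotic promoters held E2F and 70.8% held CHR.

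All 37 replication genes were measured, and none was 1.5-fold apart between exposed and control cells, in either direction. Differences are given as the log2 ratio of exposed to control FPKM after a pseudocount of 1 was added to each, which understates the difference of low genes. Across all measured genes, 4.7% reached 1.5-fold, 2.16% lower and 2.53% higher. The members' log2 ratios ran from -0.56 for RRM2 to 0.37 for CDT1, with a median of -0.16, against a median of -0.050 over all measured genes. Of the 37, 26 lay below that all-gene median, which 50% of measured genes do by construction. At a smaller size, 9 members (24.3%) were at least 20% lower (a log2 ratio of at most -0.32), against 13.5% of measured genes. One member (2.70%) was at least 25% higher (a log2 ratio of at least 0.32), against 8.98%. Among the 7558 measured genes within the members' range of mean FPKM, 14.2% and 7% passed these sizes.

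The members are fairly abundant, and 36 of them were among the 7446 genes that averaged 5 FPKM or more, whose median log2 ratio was -0.077. When the median of measured genes in 20 bins of mean FPKM was subtracted, the members' median was -0.030, with 20 of 37 below 0 and 3 at least 20% lower. With FPKM scaled to equal sums the members' median was -0.041 and that of all measured genes 0.056, so that the all-gene median was shifted by 0.11, and 2 members were at least 20% lower. Relative to the all-gene median, the members stood at -0.11 as deposited and at -0.10 after all 4 rescalings. A rescaling moves all genes by the same factor, so it could hardly change this gap and is no check on it. Subtracting the bins of mean FPKM could change the gap, and left it at -0.030.

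Values followed by an interval are ratios of reads, exposed over control at the deposited scaling, without a pseudocount. Their exact conditional 95% intervals cover counting error only, and treat reads as independent molecules, which they need not be. The members had between 352 and 8269 reads each. The interval lay below 1 for 24 members, against 36% of measured genes, and above 1 for 3 (CDT1, TYMS and RFC2), against 21.5%. Among the 7558 measured genes within the members' range of mean FPKM, these shares were 42.9% and 20.6%. That range does not match how the members are spread within it, so these shares are no baseline of equal abundance. With FPKM scaled to equal sums the counts were 15 below and 11 above, and the shares of all measured genes at that scaling are not given here. In bulk RNA of this kind, fewer cells in S phase and less messenger RNA per cell cannot be told apart.

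**Figure D2:**
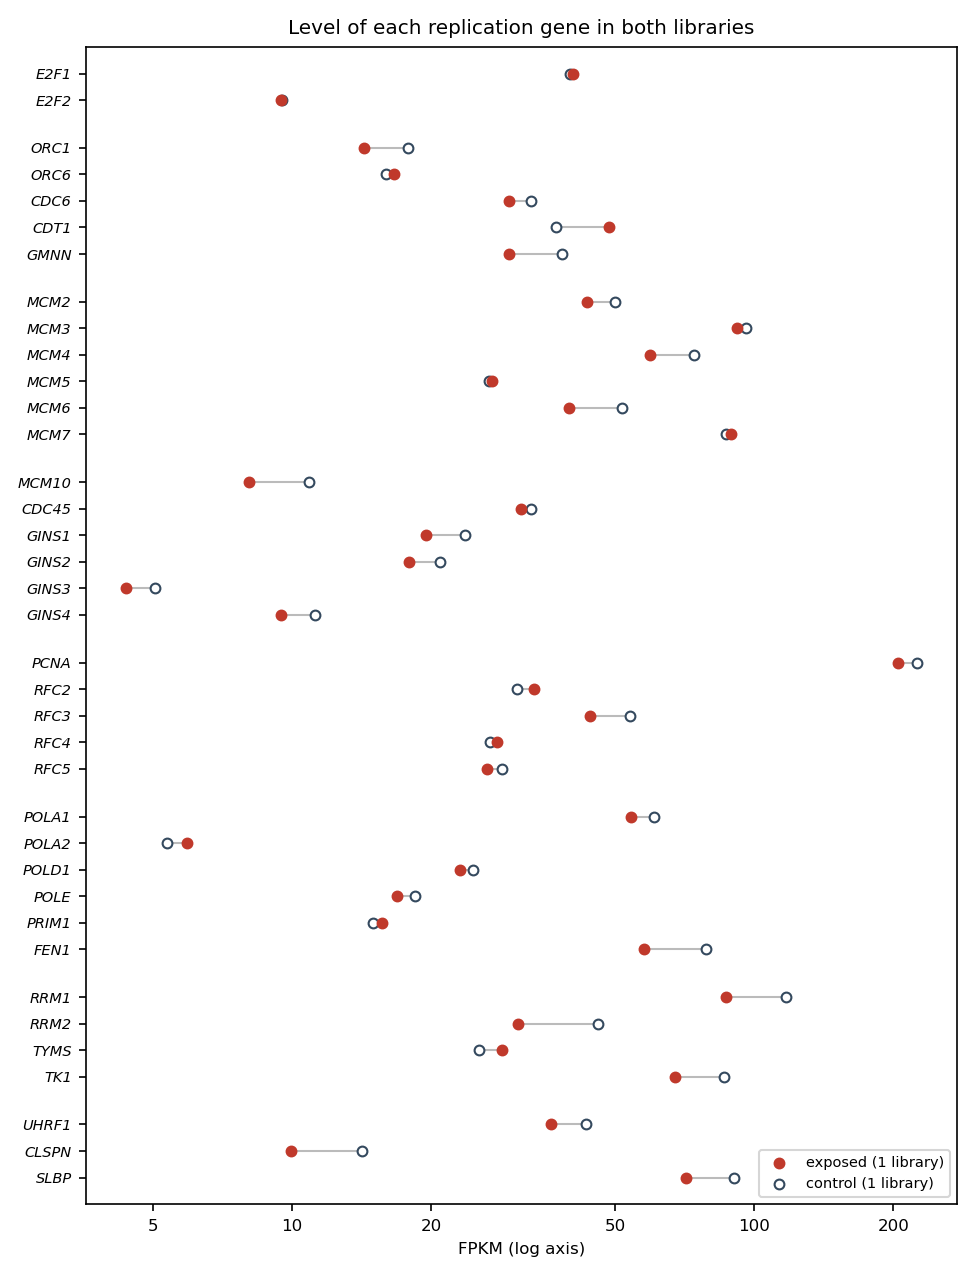
FPKM (log axis) of each of the 37 genes in the exposed library (filled) and the control library (open), grouped by role from top to bottom. PCNA was highest, at 205 FPKM in exposed and 225 FPKM in control cells, and GINS3 was lowest. The paired points lay widest apart for RRM2, at 30.8 FPKM in exposed and 46.0 FPKM in control cells, and less than 1.5-fold apart for every gene.

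The read ratio intervals of the transcription factor genes E2F1 and E2F2 included 1 at the deposited scaling. With FPKM scaled to equal sums, the log2 ratio of E2F1 was 0.14. E2F1, an activator of S phase genes (ENSG00000101412, chromosome 20, 33675683 to 33686404), stood at 40.6 FPKM in exposed and 39.9 FPKM in control cells, a read ratio of 1.02 (0.948 to 1.09). E2F2, a second activator, stood at 9.48 and 9.51 FPKM in exposed and control cells, a ratio of 0.997 (0.904 to 1.0998). Their log2 ratios were higher than those of 61.7% and 57.6% of measured genes.

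Among licensing genes the loader CDT1 and its inhibitor GMNN differed in opposite directions. CDT1 (ENSG00000167513, chromosome 16, 88803213 to 88809258) had 48.5 FPKM in exposed and 37.3 FPKM in control cells, a ratio of 1.299 (1.22 to 1.38), and was the 1 member at least 25% higher. GMNN (ENSG00000112312, chromosome 6, 24774931 to 24786099) had 29.5 FPKM in exposed and 38.4 FPKM in control cells, a ratio of 0.769 (0.712 to 0.831). CDT1 messenger RNA was thus 1.64 times that of GMNN per unit length in exposed cells and 0.973 times in control cells, a comparison within each library that scaling does not touch and that was chosen after the values were seen. Such a level ratio between genes also depends on their annotated exon lengths, which are the same for both libraries. CDT1 stood above 92.9% of measured genes in log2 ratio, and GMNN above 10.03%.

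The other licensing genes were closer to 1. ORC1, the largest subunit of the origin recognition complex and the one that is cell-cycle regulated, had 14.3 FPKM in exposed and 17.9 FPKM in control cells, a ratio of 0.801 (0.725 to 0.884). ORC6, its smallest subunit, had 16.6 and 15.9 FPKM in exposed and control cells, a ratio of 1.04 (0.958 to 1.13). The loading ATPase gene CDC6 had 29.5 and 32.9 FPKM in exposed and control cells, a ratio of 0.895 (0.848 to 0.944). The remaining origin recognition subunits ORC2 to ORC5, summarised after their values were seen, had log2 ratios between -0.14 and 0.15, and none was past these sizes.

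The 6 genes of the MCM2-7 ring encode subunits present in equal numbers, yet their ratios were not alike. MCM6 had 39.8 FPKM in exposed and 51.9 FPKM in control cells, a ratio of 0.767 (0.728 to 0.807). MCM4 had 59.6 and 74.1 FPKM in exposed and control cells, a ratio of 0.804 (0.778 to 0.831), and MCM2 had 43.6 and 50.03 FPKM, a ratio of 0.871 (0.831 to 0.912). These were the lower members of the ring. MCM3 had 91.6 FPKM in exposed and 96.0 FPKM in control cells, a ratio of 0.954 (0.919 to 0.991) whose log2 was above 0 with FPKM scaled to equal sums or scaled without mitochondrially encoded genes and the 100 most abundant ones. MCM5 had 27.1 and 26.6 FPKM in exposed and control cells, a ratio of 1.02 (0.968 to 1.07), and MCM7 had 89.3 and 86.9 FPKM, a ratio of 1.03 (0.991 to 1.06). The counting intervals of MCM4 and MCM6 did not overlap those of MCM3, MCM5 and MCM7. Summed over the ring, exposed cells had 27087 reads and control cells 30443, a ratio of 0.903 (0.888 to 0.918). Within each library the highest ring member, MCM3, was 3.38 times the lowest, MCM5, per unit length in exposed cells and 3.60 times in control cells. The length used is the merged exon length, 3650 bases for MCM3 and 7338 bases for MCM5. The lengths of the transcripts present were not measured, so these level ratios need not be ratios of molecules.

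The 6 genes of helicase activation all had log2 ratios below 0 and below the all-gene median at the deposited scaling. Of the 11409 measured genes, 6627 were below 0, and 50% lay below that median by construction. CDC45 was above 0 with FPKM scaled to equal sums or scaled without the most abundant genes. MCM10, which binds the helicase and polymerase alpha, had 8.09 FPKM in exposed and 10.9 FPKM in control cells, a ratio of 0.744 (0.674 to 0.821). CDC45 had 31.4 FPKM in exposed and 32.9 FPKM in control cells, a ratio of 0.954 (0.887 to 1.03). The GINS genes encode the 4 subunits of one complex and, unlike the MCM ring, had ratios close to each other. GINS1 stood at 19.5 and 23.7 FPKM in exposed and control cells, a ratio of 0.822 (0.763 to 0.887), and GINS2 at 17.95 and 20.9 FPKM, a ratio of 0.859 (0.786 to 0.939). GINS3 stood at 4.37 and 5.06 FPKM in exposed and control cells, a ratio of 0.865 (0.748 to 0.999), and GINS4 at 9.47 and 11.2 FPKM, a ratio of 0.843 (0.768 to 0.926). All 4 intervals overlapped one another, but each GINS gene had fewer reads than any gene of the ring, which makes its interval wider. The reads of the complex summed to 3345 in exposed and 4031 in control cells, a ratio of 0.842 (0.804 to 0.881).

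**Figure D3:**
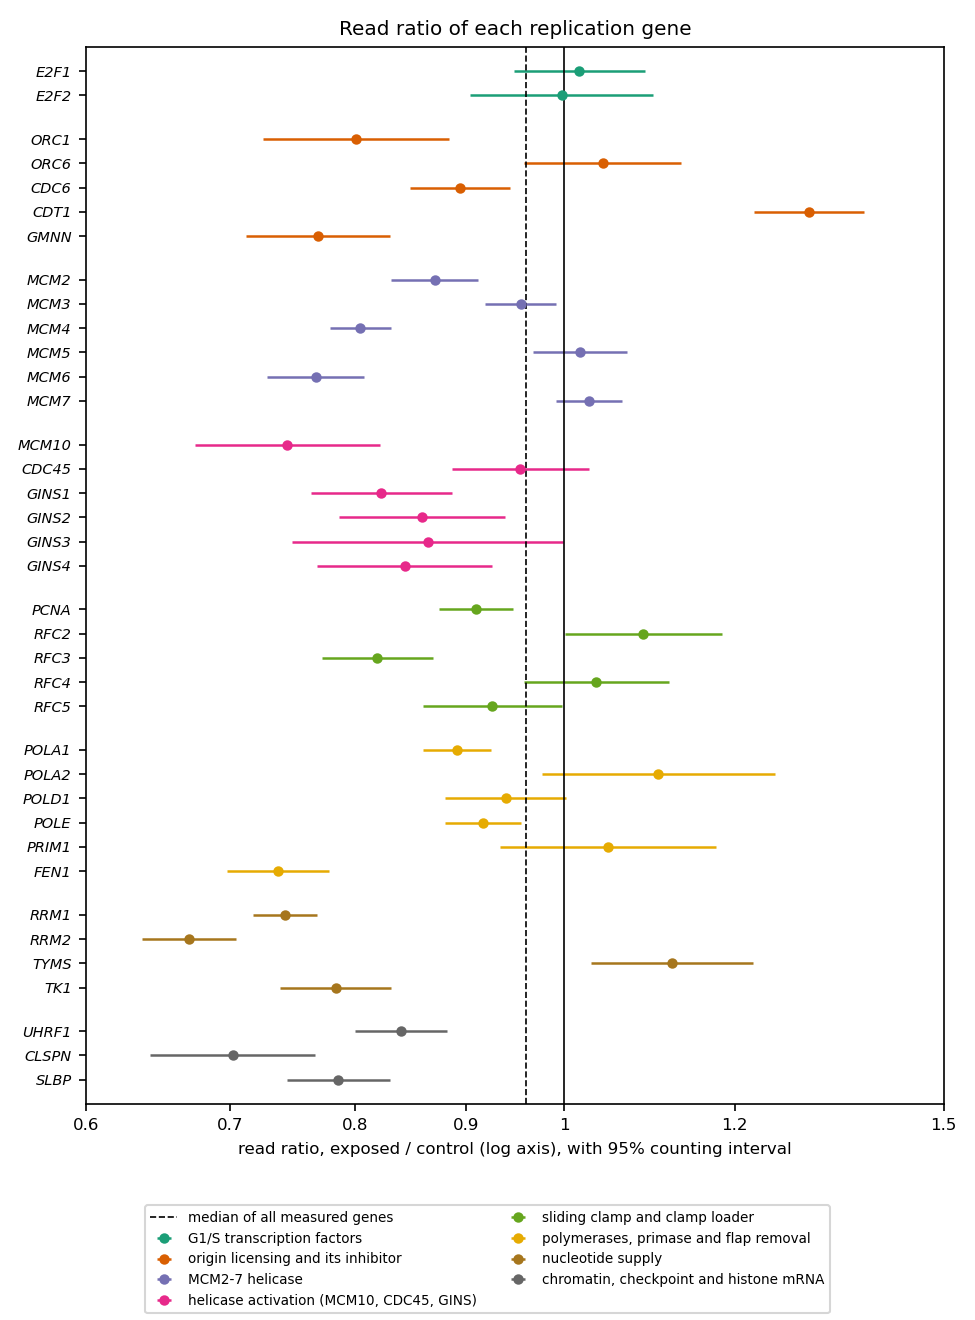
Read ratio, exposed over control (log axis), of each of the 37 genes with its 95% counting interval, coloured by role; the solid line is 1 and the dashed line the median read ratio of measured genes, 0.960. RRM2 lies lowest at 0.670, CDT1 highest at 1.299, and no gene reaches 1.5-fold in either direction.

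The clamp gene PCNA, the most abundant member (ENSG00000132646, chromosome 20, 5114953 to 5126626), had 205 FPKM in exposed and 225 FPKM in control cells, a ratio of 0.9098 (0.875 to 0.946). The small subunits of the clamp loader RFC went both ways. RFC3 had 44.2 FPKM in exposed and 53.9 FPKM in control cells, a ratio of 0.819 (0.772 to 0.869). RFC2 had 33.4 and 30.7 FPKM in exposed and control cells, a ratio of 1.09 (1.001 to 1.18), and RFC4 had 27.8 and 26.8 FPKM, a ratio of 1.03 (0.958 to 1.12). The interval of RFC3 overlapped neither of these. RFC5 had 26.4 FPKM in exposed and 28.5 FPKM in control cells, a ratio of 0.926 (0.860 to 0.998), whose log2 was above 0 with FPKM scaled to equal sums. The large subunit gene RFC1, from the fixed list of other replication genes and chosen after its value was seen, had a log2 ratio of 0.077.

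Among the enzymes that synthesise and mature DNA, the flap endonuclease gene FEN1, which trims Okazaki fragments, stood lowest. FEN1 (ENSG00000168496, chromosome 11, 61792637 to 61797244) had 57.8 FPKM in exposed and 78.5 FPKM in control cells, a ratio of 0.736 (0.697 to 0.778), and a log2 ratio lower than all but 6.38% of measured genes. The polymerase genes were near the bulk of all genes. POLA1, the catalytic subunit of the priming polymerase alpha, had 54.2 and 60.8 FPKM in exposed and control cells, a ratio of 0.892 (0.860 to 0.925). Its accessory subunit gene POLA2, which shares 35.1% of its exonic length with another annotated gene, had 5.92 and 5.36 FPKM, a ratio of 1.11 (0.976 to 1.252), and the primase gene PRIM1 had 15.7 and 15.0 FPKM, a ratio of 1.05 (0.933 to 1.18). The leading strand polymerase gene POLE had 16.9 FPKM in exposed and 18.4 FPKM in control cells, a ratio of 0.917 (0.880 to 0.955). The lagging strand polymerase gene POLD1 had 23.1 and 24.6 FPKM in exposed and control cells, a ratio of 0.939 (0.880 to 1.002), whose log2 was above 0 with FPKM scaled to equal sums. DNA ligase gene LIG1, which seals the fragments that FEN1 has trimmed, stood at a log2 ratio of -0.041 in the list of other replication genes.

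Genes of nucleotide supply held the lowest member and 3 of the 9 at least 20% lower. RRM2, the regulatory small subunit of ribonucleotide reductase that is limiting in S phase (ENSG00000171848, chromosome 2, 10120698 to 10131419), had 30.8 FPKM in exposed and 46.0 FPKM in control cells, a ratio of 0.670 (0.637 to 0.704). RRM1, the large subunit, had 87.1 FPKM in exposed and 117 FPKM in control cells, a ratio of 0.742 (0.717 to 0.768). RRM2, 20.2% of whose exonic length is shared with another annotated gene, was lower than all but 2.52% of measured genes in log2 ratio. Its stress-inducible paralog RRM2B, a known p53 target, had 13.7 FPKM in exposed and 11.7 FPKM in control cells, a ratio of 1.17 (1.07 to 1.27). RRM2B thus stood at 0.444 of the RRM2 level per unit length in exposed cells and 0.255 in control cells, a pair set side by side after the values were seen. The thymidine salvage kinase gene TK1 had 67.5 FPKM in exposed and 86.1 FPKM in control cells, a ratio of 0.783 (0.738 to 0.831).

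The thymidylate synthase gene TYMS (chromosome 18, 657604 to 673578) went the other way, with 28.4 FPKM in exposed and 25.3 FPKM in control cells, a ratio of 1.12 (1.03 to 1.22). Its value is uncertain: 39.1% of its exonic length is shared with ENOSF1 on the opposite strand, which stood at 6.65 FPKM in exposed and 4.86 FPKM in control cells. No source used here states whether strand was used in counting, so reads of the pair cannot be told apart. Other enzymes of nucleotide supply were taken from the fixed list. The deoxycytidine kinase gene DCK had a ratio of 0.718 (0.646 to 0.798). The mitochondrial thymidine kinase gene TK2, at 2.08 and 1.37 FPKM in exposed and control cells, had a log2 ratio of 0.38. It is named as the 1 gene of that list at least 25% higher by this log2 ratio, whose pseudocount understates low genes. Its read ratio was 1.52 (1.24 to 1.87). In the same list, RNASEH2B had a read ratio of 1.30 (1.195 to 1.41) and POLD4 1.30 (0.895 to 1.90), both named after their values were seen.

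Genes that tie the fork to chromatin and the checkpoint were lower in all 3 cases, and 6627 of the 11409 measured genes also had a log2 ratio below 0. CLSPN encodes claspin, which carries the signal from ATR to the kinase CHK1 at stalled forks (ENSG00000092853, chromosome 1, 35720218 to 35769967). It had 9.97 FPKM in exposed and 14.2 FPKM in control cells, a ratio of 0.702 (0.642 to 0.767), and a log2 ratio of -0.47, the lowest after RRM2. SLBP, whose protein binds the stem-loop of replication-dependent histone messenger RNAs, had 71.1 FPKM in exposed and 90.6 FPKM in control cells, a ratio of 0.786 (0.743 to 0.830). UHRF1, which guides DNA methylation to copied DNA, had 36.4 and 43.3 FPKM in exposed and control cells, a ratio of 0.840 (0.7998 to 0.882). The checkpoint kinase gene CHEK1, from the fixed list, had a ratio of 1.15 (1.05 to 1.26), and the maintenance methyltransferase gene DNMT1 had 0.863 (0.832 to 0.894). Claspin and its partner kinase therefore lay on opposite sides of 1 in these libraries.

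Beyond the members, 66 further replication genes were listed, of which 65 were measured. The median log2 ratio was -0.16 for the members and -0.14 for these genes. By the log2 ratio with its pseudocount, 2 of them (3.08%) were at least 1.5-fold lower, near the 2.16% of measured genes, and none higher, against 2.53%. These 2 were the cyclin E genes CCNE1 and CCNE2, the partners of CDK2 at the start of S phase. CCNE1 had 6.94 FPKM in exposed and 13.2 FPKM in control cells, a ratio of 0.527 (0.454 to 0.610), and CCNE2 had 3.23 and 5.83 FPKM, a ratio of 0.554 (0.469 to 0.654). CCNE2 shares 37.1% of its exonic length with other annotated genes, mostly INTS8. The S phase cyclin gene CCNA2 had a ratio of 0.689 (0.647 to 0.734), and the histone chaperone gene ASF1B 0.664 (0.620 to 0.711). The firing kinase gene CDC7 stood at -0.16 and its activator DBF4 at -0.32 in log2 ratio. The single-strand binding genes RPA1, RPA2 and RPA3 stood at -0.36, -0.31 and -0.11. By the same log2 ratio, 9 of the 65 (13.8%) were at least 20% lower, near the 13.5% of measured genes, and 1 (1.54%) was at least 25% higher, against 8.98%.

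Among 17 genes of the E2F and retinoblastoma network, 16 were measured, with a median log2 ratio of 0.024. The 1 gene at 1.5-fold (6.25%, against 2.53% of measured genes higher) was CDKN1A, which encodes the CDK inhibitor p21, at 53.2 FPKM in exposed and 33.4 FPKM in control cells, a ratio of 1.59 (1.498 to 1.70). E2F7, a repressor of E2F targets and a p53 target, had 18.6 FPKM in exposed and 13.9 FPKM in control cells, a ratio of 1.34 (1.247 to 1.43). TFDP1, the DNA-binding partner of E2F proteins, had 52.1 FPKM in exposed and 73.1 FPKM in control cells, a ratio of 0.712 (0.680 to 0.746). In log2 ratio the retinoblastoma gene RB1 stood at -0.15, its relative RBL1 at 0.21, LIN52 at 0.16, the activator gene E2F3 at -0.15 and the repressor gene E2F8 at -0.23. The repressors E2F7 and E2F8 lay on opposite sides of 0 at the deposited scaling.

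Replication genes stood above mitotic genes, which peak later in the cycle, in the same libraries. The median log2 ratio was -0.16 for the 37 replication genes and -0.46 for 30 measured of 31 listed mitotic genes, of which 9 (30%) were at least 1.5-fold lower, against 2.16% of measured genes, and none higher, against 2.53%. KIF20A, a kinesin of cytokinesis, had a ratio of 0.499 (0.463 to 0.537), DLGAP5 0.532 (0.491 to 0.576) and the proliferation marker gene MKI67 0.556 (0.540 to 0.574). The log2 ratios of ASPM, AURKA and CCNB1 were -0.71, -0.70 and -0.72. The members' median lay above the mitotic median under each alternative setting of scaling, filter, pseudocount and trend. It was -0.030 against -0.35 once genes of like mean FPKM were used as the baseline. The rescalings move all genes by 1 factor and could not reorder these medians. Both lists were chosen with earlier results of these data known. With 1 library per group this difference between lists was not tested.

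**Figure D4:**
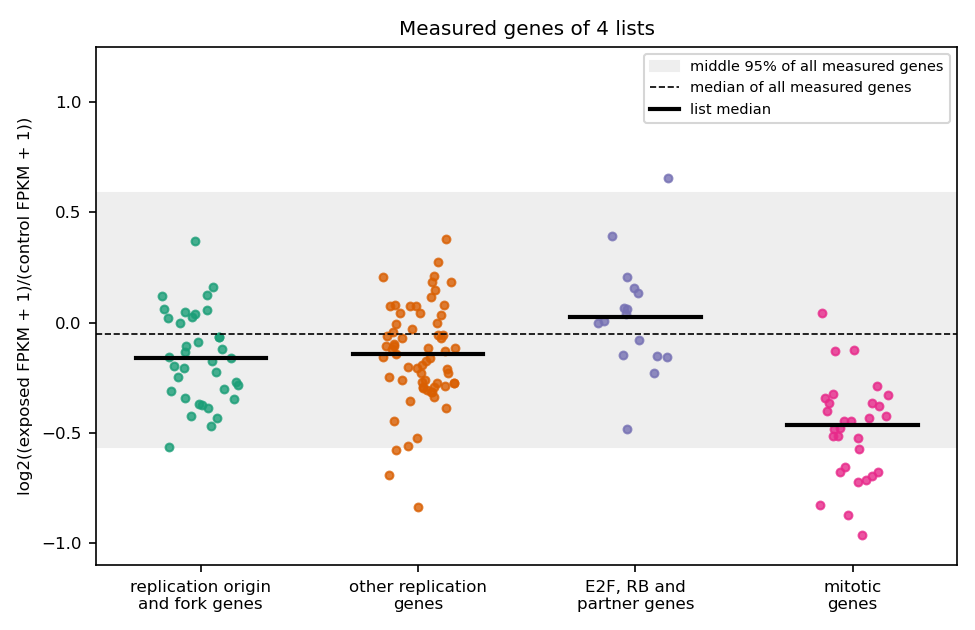
Log2 ratio, exposed over control with a pseudocount of 1, of each measured gene in 4 lists; thick bars are list medians, the dashed line is the median of all measured genes (-0.050) and the band holds the middle 95% of them (-0.56 to 0.59). Replication genes sit around -0.16 and all 37 lie within the band, whereas the mitotic list is centred on -0.46.

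The log2 ratios were also set beside promoter matches, level and length. Members with an E2F match had a median log2 ratio of -0.16 (19 genes) and those without one -0.30 (15 genes), and both groups spanned 0. The highest member, CDT1, and one of the lowest, CLSPN, each held 1 match, as printed above. Across the 37 genes, which share both libraries and are not replicates, Pearson's r of the log2 ratio was -0.16 with log2 mean FPKM and -0.064 with log2 gene length. The levels of the members in log2(FPKM + 1) had a Pearson's r of 0.984 and a Spearman's rho of 0.981 between the libraries, and some members changed places: CDT1 was above GMNN and E2F1 in exposed cells and below both in control cells. Together the members took 0.563% of reads in exposed cells (Wilson 95% interval 0.559% to 0.567%) and 0.605% in control cells (0.601% to 0.609%). These shares use the read sums without the deposited scaling, and so differ less than the ratios above. At the deposited scaling the same reads gave a ratio of 0.877 (0.869 to 0.885).

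**Figure D5:**
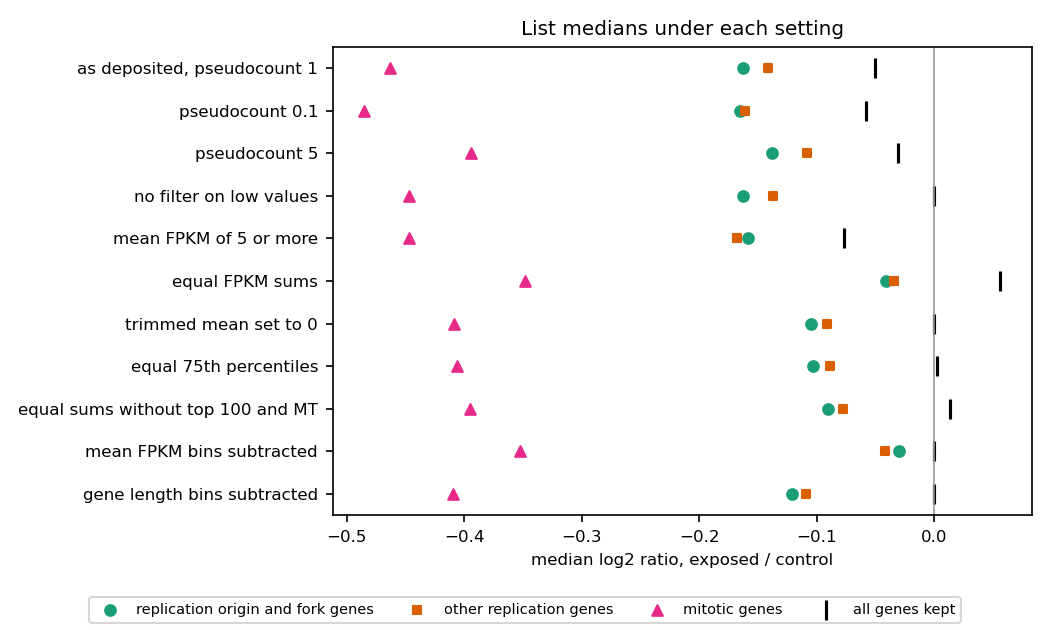
Median log2 ratio, exposed over control, of the members (circles), the other replication genes (squares), the mitotic genes (triangles) and all genes kept (bars) under the deposited scaling and each alternative setting. The members' median runs from -0.17 to -0.030 and stays left of that of all genes, while the mitotic median lies between -0.48 and -0.35.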

How the data were processed

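RNA sequencing libraries (1 exposed, 1 control) were grouped by sample title. The deposited table gives 1 FPKM value per gene and library, made by the authors; for the aligner and counter, nothing is given in the sources used here. Mouse builds (GRCm38, mm10) are named in the submitters' processing notes, but all 58735 genes have the human identifiers, starts and ends of GENCODE release 29 (GRCh38), and every deposited gene length equals the merged exon length there, so coordinates are on GRCh38. Reads were recovered by multiplying FPKM by gene length and dividing by the smallest such product of the library, which gave whole numbers to within 0.001 for 100% of values above 0. The library totals in the deposited FPKM were these read sums times 1.03 (exposed) and 0.971 (control), so the values were already scaled between libraries and were used as they are.

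With 1 library per group there was no test and there are no p-values here. Genes were counted by the size of the log2 ratio (1.5-fold, and 20% lower or 25% higher as an alternative) or by whether the exact conditional (Clopper-Pearson) 95% interval of the read ratio excluded 1, computed with Python 3.11.15 and SciPy 1.17.1. Intervals cover counting error only. The calculation was tested on simulated reads. These were drawn with counting error only and with planted differences larger than that of any member. The simulation therefore checks the code, and not how far such libraries vary. Named genes were all 37 members, up to 6 genes with the largest absolute log2 ratio in each other list, a fixed set of partners and genes that overlap a member; any others are said to be chosen afterwards. A gene that this rule covers is not reported here. Members, lists and rules were chosen with earlier results of these data known. Alternatives were pseudocounts of 0.1 and 5, no filter and a mean FPKM of 5, 4 rescalings (equal FPKM sums, a mean of log ratios with 30% trimmed on each side set to 0, equal 75th percentiles, and equal sums without mitochondrially encoded genes and the 100 most abundant ones), subtraction of the median in 20 bins of mean FPKM or of gene length, other fold sizes and 99% intervals. Promoters came from RefSeq (GRCh38.p14).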

Additional observations from a re-analysis of the deposited data

How the results depend on the processing

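No member reached 1.5-fold in either direction under any alternative pseudocount, filter, scaling or trend, nor 2-fold. At the smaller size, 9 members were at least 20% lower and 1 at least 25% higher. The 9 became 2 with equal sums, 4 without the most abundant genes, 5 with the trimmed mean or equal 75th percentiles and 3 with mean FPKM bins subtracted, while 1 was higher in each. The members' median log2 ratio moved by more than the counting interval of its middle gene to -0.041 with FPKM scaled to equal sums, -0.11 with the trimmed mean set to 0, -0.10 with equal 75th percentiles, -0.090 with equal sums without the most abundant and mitochondrially encoded genes, and -0.030 with mean FPKM bins subtracted. It stayed negative in each, and between -0.17 and -0.12 with the other alternatives. Read ratio intervals below 1 numbered 15 with equal sums, against 24 as deposited, and between 20 and 21 otherwise. Those above 1 numbered 11 with equal sums, 6 with the trimmed mean, 6 with equal 75th percentiles and 8 without the most abundant genes, against 3 as deposited. The rescalings move all genes by 1 factor, so these counts move by construction. The shares of all measured genes under the same settings are not given here, so these counts have no background beside them. The log2 ratio changed sign for MCM3, CDC45, RFC5, POLD1 and E2F2 with equal sums, and for PCNA and POLA1 as well with mean FPKM bins subtracted. No paired analysis was possible because each group has 1 library. GINS3, with 352 and 413 reads in exposed and control cells, had the fewest reads of all members.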

Other observations

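Among all genes of the lists on replication, the E2F network and mitosis, 3 stood below a mean FPKM of 1 in both libraries, and they were singled out after their values were seen. RNASEH2A, a subunit of the nuclease that removes ribonucleotides from DNA, had 30 reads in exposed and 39 reads in control cells. PRC1, which bundles microtubules in the midzone of the dividing cell, had 48 and 29 reads in exposed and control cells, and LIN37, a subunit of the DREAM repressor, had 7 and 21. Other genes cover 30.8%, 58.4% and 54.0% of the exonic bases of RNASEH2A, PRC1 and LIN37 in the annotation that the table uses. Part of PRC1 is also annotated as AC068831.7, which had 358 reads in exposed and 384 reads in control cells. NUSAP1, the listed gene with the largest shared part, 62.2%, had 152 and 269 reads in exposed and control cells. How reads in shared exons were assigned is not given in the sources used here, and the part of this overlap in the low values was not tested.

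The same holds for some members. Of the 37, 15 share at least 1 exonic base with another annotated gene and 6 share over 20% of their exonic length. These 6 are TYMS at 46.6%, POLA2 at 35.1%, MCM2 at 23.6%, GINS4 at 23.6%, PRIM1 at 21.6% and RRM2 at 20.2%. The partner covering most of RRM2, AC007240.1, had 17 reads in exposed and 11 reads in control cells, and that of POLA2, AP000944.2, had 1 and 3. Annotated pseudogene copies named for a member had few reads: RRM2P2, RRM2P3 and RRM2P4 together had 5 in exposed and 3 in control cells.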
